A study of Mus musculus with 8 samples.

Results

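DNA methylation was followed at 6 mouse genes, Mettl21a, Ovgp1, Nfic, Des, Cacna1b and Foxe1, of 55341 genes in the GENCODE M21 annotation. They were chosen by measured methylation: a 1000 bp tile that overlaps the 1000 bp upstream of one of their annotated start sites was much less methylated in tumors given C29 and 5-azadC together than in tumors given vehicle. For each gene the body and the 5000 bp upstream were read, and 1399 cytosines had at least 10 reads in any of the 8 libraries, of 3062363 in the whole data set. Reduced representation bisulfite sequencing (RRBS), which reads fragments cut at CCGG sites after bisulfite treatment, had been run on tumors of NIC-5231, a mouse breast cancer cell line. The tumors grew from cells placed into a mammary fat pad of immunodeficient NSG mice aged 5 to 7 weeks. Mice were injected intraperitoneally every 2 days, 5 per group, with saline holding 30% PEG and 5% DMSO (vehicle). The C29 group had 10 mg/kg of C29 in it and the 5-azadC group 1 mg/kg of 5-azadC. The C29+5-azadC group had the same doses of both. Treatment lasted 20 days, until the largest tumor of the experiment was at its allowed size. Each group had 2 libraries, each made from the pooled DNA of 2 mice, so the values are averages over tumors of 1 cell line and any host cells in them, whose mouse genome cannot be told apart here.

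C29 is an inhibitor of the nuclear receptor ERRα. 5-azadC (decitabine) is a cytidine analog that is built into DNA and traps DNA methyltransferases, so that the strand made at the next replication is left unmethylated. Methyl groups in mammalian DNA sit mainly on the cytosine of CpG dinucleotides, on both strands, and a methylated CpG-rich start site is usually silent, while methylation within a gene body has no such simple reading. Mettl21a encodes a lysine methyltransferase that modifies heat shock chaperones. Ovgp1 encodes oviductin, a secreted glycoprotein of the oviduct from the chitinase family. Nfic is a transcription factor of the nuclear factor I family, with a known part in tooth root formation. Des encodes desmin, the intermediate filament of muscle, Cacna1b the pore-forming subunit of the neuronal N-type calcium channel, and Foxe1 a forkhead transcription factor of the thyroid. RNA was not analysed here.

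The libraries held 51359825 to 81299065 reads summed over cytosines, with a median of 21 to 30 reads at a cytosine. Spike-in DNA without methylation read as 0.216% to 0.329% methylated, and fully methylated spike-in DNA as 97.5% to 98.3%. With 2 libraries against 2, the smallest two-sided exact permutation p is 0.33. The intervals and the logistic tests below cover counting error only, because they treat reads as independent and leave out the spread between libraries. PCR copies were not marked, so the counting error itself may be larger than given.

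The tiles overlap promoters in the sense of the annotation, but few of the cytosines behind them lie at a promoter of the full-length gene. A cytosine entered the comparison of C29+5-azadC with vehicle if it had at least 10 reads in all 4 of those libraries, and 29 cytosines did so over the 6 tiles. Of these 29, 0 were in the 1000 bp upstream of the first start site of their gene, and 13 were in the 1000 bp upstream of any annotated start site. In Mettl21a (minus strand, chr1:64606473-64617242) the tile at chr1:64615001-64616000 lies in an intron, and its 3 cytosines are 1265 to 1491 bp inside the gene, at -120 to -346 bp from the start of a processed transcript with no coding sequence. In Ovgp1 (plus strand, chr3:105973711-105987423) the tile at chr3:105977001-105978000 covers a coding exon, 3984 to 4093 bp inside the gene, and also the non-coding gene Gm42890 on the same strand. The Nfic tile (minus strand gene, chr10:81396186-81455635, tile chr10:81401001-81402000) is in the last intron, 53935 to 54387 bp from the first start site. Its 6 cytosines are upstream of the start of a short processed transcript, at -694 to -1146 bp, and 5 of the 6 are within 1000 bp of it. The Des tile (plus strand gene, chr1:75360329-75368579, tile chr1:75361001-75362000) holds 4 cytosines at 1234 to 1338 bp, in an intron that is exonic in a retained-intron transcript. Only the tiles of Cacna1b and Foxe1 sit at the first start site of the gene. In Cacna1b (minus strand, chr2:24603887-24763152, tile chr2:24763001-24764000) 6 of the 7 cytosines are in the first coding exon and the other is in the 5′ UTR, 97 to 149 bp inside. In Foxe1 (plus strand, chr4:46343609-46346412, tile chr4:46343001-46344000) the 5 cytosines are in the 5′ UTR of the only exon, 357 to 386 bp inside, and the antisense gene Gm12446 also crosses this tile.

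The bases that carry the measured differences are short stretches between a few CpGs, shown here because each tile value rests on them alone. Capitals mark the CpGs with a cytosine used in the comparison, on either strand. The plus strand of GRCm38 (RefSeq) is given 5′ to 3′.
Mettl21a, intron, chr1:64615741-64615987: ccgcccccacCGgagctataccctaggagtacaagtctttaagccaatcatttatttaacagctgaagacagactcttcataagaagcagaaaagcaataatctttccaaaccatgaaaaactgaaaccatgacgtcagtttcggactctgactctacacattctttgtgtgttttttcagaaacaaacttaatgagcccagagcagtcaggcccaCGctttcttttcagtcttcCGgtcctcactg
Ovgp1, coding exon, chr3:105977685-105977814: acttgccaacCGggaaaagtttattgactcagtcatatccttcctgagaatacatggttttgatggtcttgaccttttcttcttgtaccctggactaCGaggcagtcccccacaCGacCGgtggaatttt
Nfic, last intron, 5 of the 6 CpGs, chr10:81401238-81401452: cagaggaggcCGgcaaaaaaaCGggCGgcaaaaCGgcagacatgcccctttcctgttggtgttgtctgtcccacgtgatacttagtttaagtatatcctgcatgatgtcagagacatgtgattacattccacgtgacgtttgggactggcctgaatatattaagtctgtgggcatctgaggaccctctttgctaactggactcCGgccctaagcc
Des, intron, chr1:75361553-75361677: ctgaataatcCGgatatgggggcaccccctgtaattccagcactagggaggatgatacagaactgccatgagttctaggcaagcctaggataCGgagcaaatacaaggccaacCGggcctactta
Cacna1b, coding part of the first exon, 6 of the 7 CpGs, chr2:24762992-24763047: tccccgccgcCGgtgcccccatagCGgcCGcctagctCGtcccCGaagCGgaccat
In the Cacna1b sequence the last 3 bases are the start codon read on the opposite strand, and 6 of 8 CpGs in these 56 bp were used, so this is a dense CpG cluster. The other 4 sequences hold 3 to 8 CpGs in 125 to 247 bp. Over the whole 1000 bp the tiles of Cacna1b and Foxe1 contain 67 and 64 CpGs, above the median of 32 among the 31510 promoter tiles compared, and those of Mettl21a, Ovgp1, Nfic and Des contain 17 to 26. The CpGs used were 4.69% (Foxe1) to 23.1% (Nfic) of the CpGs of the tile, and they spanned 30 bp in Foxe1, 53 bp in Cacna1b and 105 to 453 bp in the others.

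The next values chose the genes and are given as a description, with no test. A tile was ranked if C29+5-azadC differed from vehicle by at least 25 percentage points at a Benjamini-Hochberg q below 0.01 (logistic likelihood-ratio test), each of the 4 libraries had at least 100 reads and both treated libraries were below both vehicle libraries. This gave 295 promoter tiles, of which Mettl21a, Ovgp1, Nfic, Des and Cacna1b were the first 5, and Foxe1 was number 18. Of all 148933 tiles, 12.9% were called lower in this comparison, and the 6 members were called by construction. Cacna1b, just inside the first 5, differed by -52.2 points, and the next tile in rank, that of Gm18382, by -50.2 points.

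**Figure D1:**
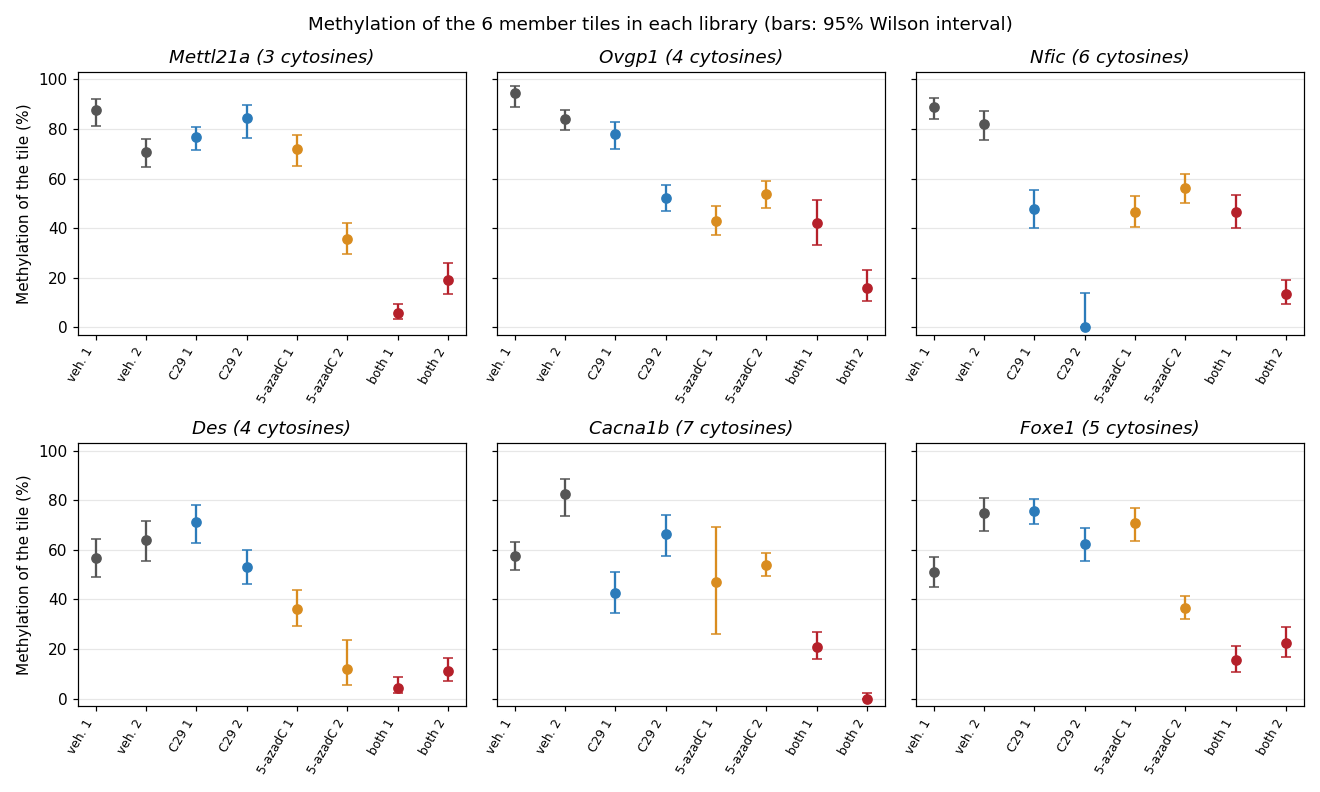
Methylation (%) of the tile of each gene in the 8 libraries, pooled over the cytosines used to choose the genes, with 95% Wilson intervals that cover counting error only (veh., vehicle; both, C29+5-azadC). Both libraries of C29+5-azadC lie below the vehicle libraries in every panel, which the choice of the genes fixed. Most single-drug libraries lie between them, but C29 replicate 1 is above both vehicle libraries at Des and Foxe1, and C29 replicate 2 (24 reads) is below all others at Nfic.

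The Mettl21a tile had the largest difference between C29+5-azadC and vehicle, and C29 alone was at the vehicle level. Vehicle had 87.6% and 70.7% methylation, the C29 libraries 76.6% and 84.2%, the 5-azadC libraries 71.7% and 35.6%, and the C29+5-azadC libraries 5.65% and 19%, on 114 to 316 reads. The C29 libraries lay inside the range of vehicle, 5-azadC replicate 1 was just inside it and 5-azadC replicate 2 was well below it. As group means, vehicle had 79.1% ± 12, C29 80.4% ± 5.39, 5-azadC 53.7% ± 25.6 and C29+5-azadC 12.3% ± 9.43 (SD, n = 2 libraries each). Along the chromosome the value has 2 sources that do not share reads. The minus-strand cytosines at 64615958 and 64615977 gave 96.8% and 68.2% with vehicle, 78.7% and 80% with C29, 69.8% and 31.2% with 5-azadC and 5.98% and 0% with C29+5-azadC. The plus-strand cytosine at 64615751 gave 80.5% and 95.7% with vehicle, 55.2% and 100% with C29, 76.9% and 47.0% with 5-azadC, and 0% (14 reads) and 50% with C29+5-azadC. On the minus strand both C29+5-azadC libraries were the lowest, and on the plus strand replicate 2 was just above 5-azadC replicate 2. Both sources put 5-azadC replicate 2 below every library without 5-azadC.

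Ovgp1 was lower than vehicle in all 6 treated libraries, least so in C29 replicate 1. The tile had 94.6% and 84.1% methylation with vehicle, 77.9% and 52.1% with C29, 43.0% and 53.6% with 5-azadC, and 42.0% and 16.0% with C29+5-azadC, on 111 to 334 reads. C29+5-azadC replicate 1 was at the level of 5-azadC replicate 1, and replicate 2 was far lower. The group mean of vehicle was 89.3% ± 7.42, that of C29 65.0% ± 18.2, that of 5-azadC 48.3% ± 7.48 and that of C29+5-azadC 29% ± 18.3 (SD, n = 2). The minus-strand cytosines at 105977783, 105977800 and 105977804, which lie on the same reads, gave 100% and 82.8% with vehicle and 50% and 5.88% with C29+5-azadC. In C29+5-azadC replicate 1 the first 2 of them were at 25% and the last at 100% on the same 24 reads, so neighboring CpGs read on the same fragments differed. At the plus-strand cytosine 105977695 vehicle had 82.4% and 90%, C29+5-azadC 27.5% and 51.7%, and C29 replicate 2 0% on 22 reads.

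At Nfic both 5-azadC libraries and C29 replicate 1 were below both vehicle libraries. Vehicle had 88.9% and 81.9% methylation, C29 replicate 1 47.7%, 5-azadC 46.7% and 56.1%, and C29+5-azadC 46.6% and 13.5%. C29 replicate 2 had reads at only 1 of the 6 cytosines, 81401700, where 0 of 24 reads were methylated, which allows up to 12.5%. Vehicle replicate 2 was also at 0% at this cytosine, so C29 stands on replicate 1 here. C29+5-azadC replicate 1 was close to C29 replicate 1 and 5-azadC replicate 1, and only C29+5-azadC replicate 2 was lower. The 4 plus-strand cytosines from 81401248 to 81401271 share reads and gave 85% and 100% with vehicle, 53.8% with C29 replicate 1, 51.6% and 71.2% with 5-azadC, and 57.9% and 0% with C29+5-azadC. At the minus-strand cytosine 81401442 vehicle was at 100% in both libraries and C29 replicate 1 at 100%, 5-azadC at 53.6% and 0%, and C29+5-azadC at 43.8% and 63.4%. The cytosine at 81401700 was at 100% on 10 reads in vehicle replicate 1 and at 0% in all 7 other libraries.

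On the 4 cytosines used, Des was lower in all 4 libraries with 5-azadC than in all 4 without it. The choice of the genes fixed this order between C29+5-azadC and vehicle. The Des tile had 56.7% and 64.0% methylation with vehicle, 71.1% and 53.2% with C29, 36.2% and 12% with 5-azadC, and 4.44% and 11.1% with C29+5-azadC, on 50 to 205 reads. The group means were 60.3% ± 5.15, 62.1% ± 12.7, 24.1% ± 17.1 and 7.78% ± 4.71 (SD, n = 2, same order). 5-azadC replicate 2 had only 5 to 8 reads at 3 of the 4 cytosines, and only the plus-strand cytosine at 75361563 had 10 reads in all 8 libraries. There vehicle had 57.9% and 77.8%, C29 69.0% and 86.0%, 5-azadC 93.5% and 18.8%, and C29+5-azadC 0% and 26.5%, so at this cytosine 5-azadC replicate 1 was the most methylated library of all. The minus-strand cytosines 75361646 and 75361667 gave 44.8% and 80.4% with vehicle, 96% and 33.7% with C29 and 12.1% and 2.04% with C29+5-azadC. The plus-strand cytosine 75361666 was at 65% in vehicle replicate 1 and already at 0% in vehicle replicate 2. Another set, the 4 cytosines with 10 reads in all libraries of vehicle and 5-azadC, gave overlapping groups. There 5-azadC had 57.9% and 24.1% and vehicle 36.5% and 39.5%.

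Cacna1b had less methylation with both drugs on the minus strand of the part of its first exon inside the tile. The plus strand of the tile, which vehicle replicate 1 did not cover, was lower than vehicle replicate 2 in C29+5-azadC replicate 2 but not in replicate 1. Over its 7 cytosines vehicle had 57.5% and 82.4% methylation, C29 42.6% and 66.4%, 5-azadC 47.1% (17 reads at 1 cytosine) and 54.0%, and C29+5-azadC 20.9% and 0%. The value of 0% rests on 174 reads, which allows up to 1.72%. All 7 cytosines are on the minus strand, because vehicle replicate 1 had no reads on the plus strand of this tile. The 6 cytosines from 24763017 to 24763055 share reads and gave 60.1% and 100% with vehicle, 42.5% and 72.5% with C29, 59.6% with 5-azadC replicate 2, and 22.5% and 0% with C29+5-azadC. The cytosine at 24763003 was different, with 0% in both vehicle libraries and both C29+5-azadC libraries but 43.5% and 35% with C29 and 47.1% and 22.7% with 5-azadC. On the 13 plus-strand cytosines of the tile, vehicle replicate 2 had 60.9%, C29 52.2% and 59.6%, 5-azadC 58.8% and 70.2%, and C29+5-azadC 67.7% and 31.9%. C29+5-azadC replicate 1 was therefore above vehicle replicate 2 there. At the CpG whose plus-strand cytosine is 24763020 the plus strand of C29+5-azadC replicate 1 was at 100% on 23 reads, and the minus strand, at 24763021, at 0% on 34 reads.

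**Figure D2:**
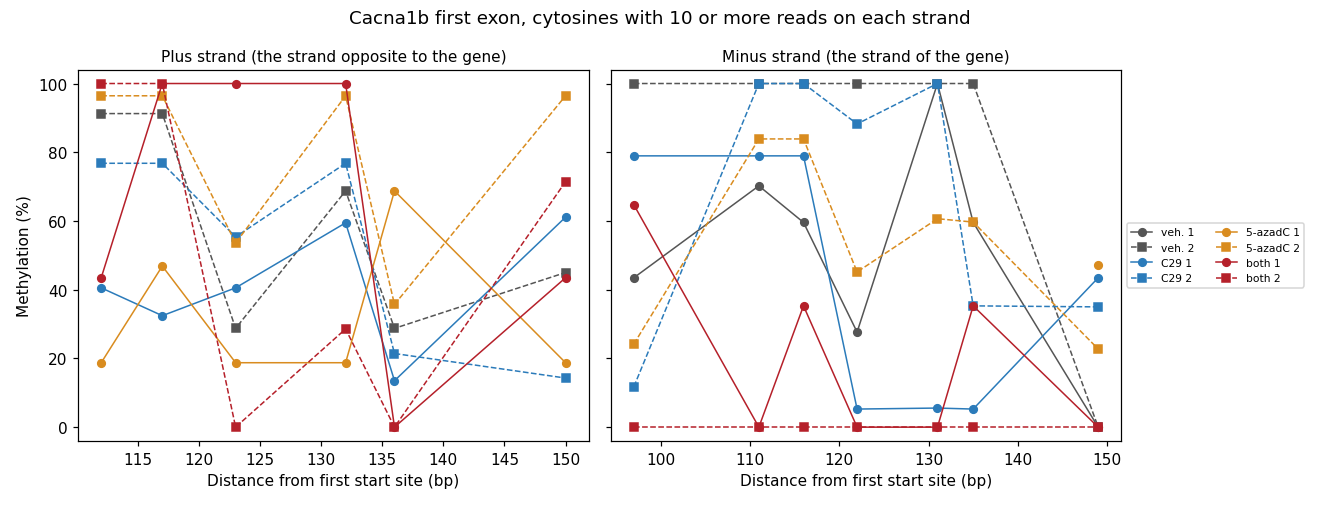
Methylation (%) of each CpG in the part of the Cacna1b first exon inside the tile, for each library with at least 10 reads. It is drawn against the distance from the first start site (bp), on the plus strand (left) and the minus strand (right). The libraries of C29+5-azadC (red) reach 100% at several plus-strand cytosines and lie at 0% to 64.7% on the minus strand, and vehicle replicate 1 has no plus-strand value.

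The Foxe1 tile was lowest with both drugs, but C29 alone and 5-azadC replicate 1 were near the vehicle level. Vehicle had 50.9% and 74.8% methylation, C29 75.7% and 62.3%, 5-azadC 70.7% and 36.5%, and C29+5-azadC 15.4% and 22.3%, on 163 to 417 reads. The 5-azadC libraries were 34.2 points apart, more than the pooled difference of 5-azadC from vehicle. The plus-strand cytosines at 46343966, 46343979 and 46343994 gave 43.3% and 63.2% with vehicle, 90.4% and 66.7% with C29, 70.3% and 39.4% with 5-azadC, and 0% and 31.7% with C29+5-azadC. The minus-strand cytosines at 46343980 and 46343995 gave 75.8% and 81.1% with vehicle, 65.2% and 60.7% with C29, 71.7% and 32.4% with 5-azadC, and 41.2% and 0% with C29+5-azadC. On the plus strand replicate 1 of C29+5-azadC was at 0% and on the minus strand replicate 2 was. Toward the start site, plus-strand cytosines between 46343684 and 46343729 were read well in some libraries only, and C29+5-azadC ranged there from 26.6% to 70.3% in replicate 1 and from 0% to 73.1% in replicate 2, with 41.7% to 61.1% in vehicle replicate 2.

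**Figure D3:**
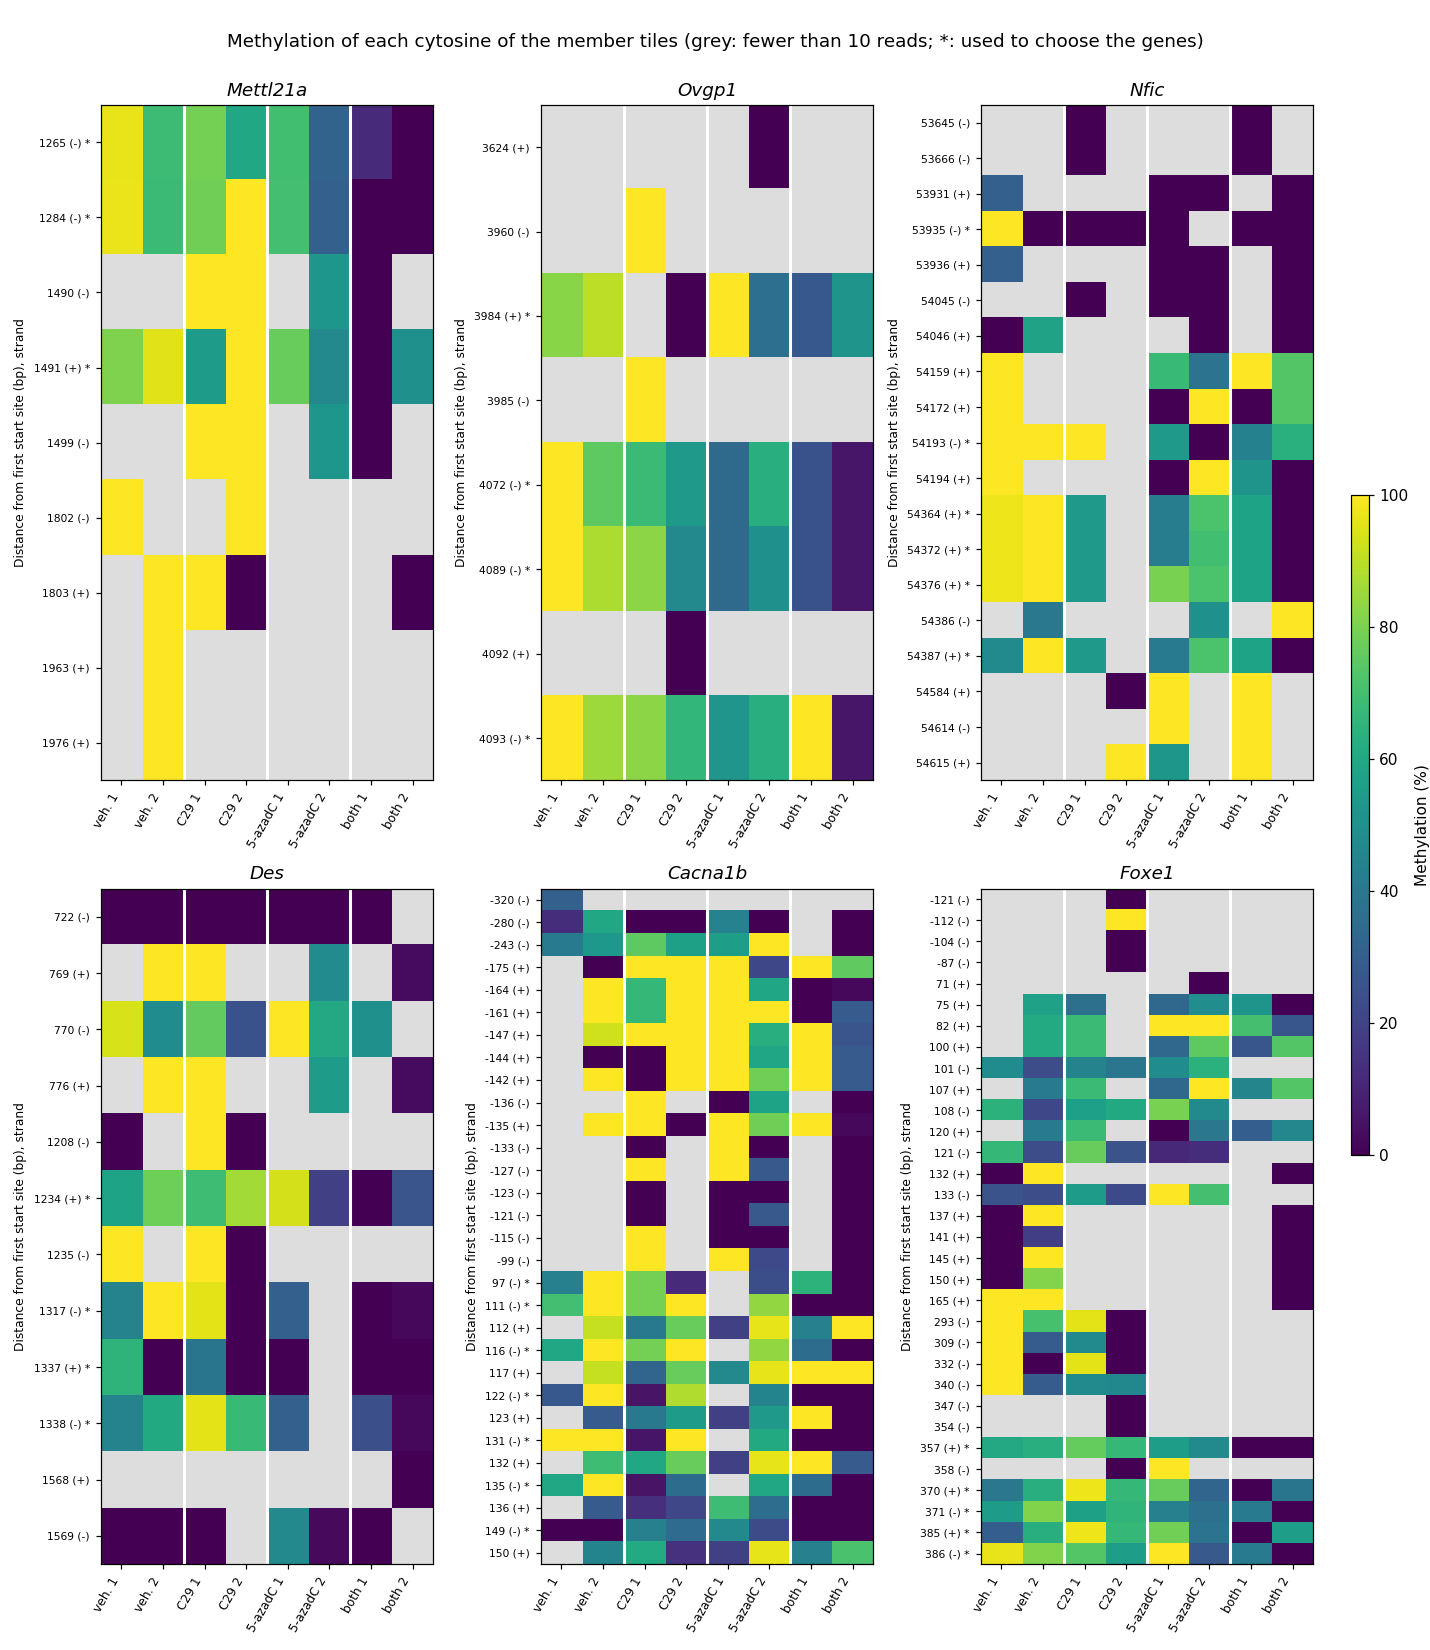
Methylation (%) of each cytosine with at least 10 reads in any library in the 6 tiles, by library (columns) and by distance in bp from the first start site with its strand (rows), 110 cytosines in all. Cytosines marked * were used to choose the genes. In C29+5-azadC most of these are dark, but yellow cells at or near 100% remain among the other cytosines, as in Cacna1b, and at 1 used cytosine of Ovgp1, and grey cells show how many cytosines were read in some libraries only.

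Seen cytosine by cytosine, both C29+5-azadC libraries were below both vehicle libraries at 22 of the 29 cytosines. At 5 of these 22 both C29+5-azadC libraries were at 0%. The choice of the tiles required this order for the values pooled over the same cytosines. It therefore favors the count of 22, and that of the runs below, and neither is a test. Both C29+5-azadC libraries were at 0% at 3 more cytosines, in Nfic, Des and Cacna1b, where vehicle was at 0% in at least 1 library. A value of 0% at 10 reads allows up to 30%. These 29 are not independent: cytosines on the same strand whose read numbers agree within 3 reads in every library form 14 runs that share their reads, and both C29+5-azadC libraries were below both vehicle libraries in 11 of the 14. The tiles of the 6 genes held 110 cytosines with 10 reads in any library. Among their 548 values at 10 or more reads, 25.9% were exactly 0% and 20.8% exactly 100%. At the 29 cytosines alone, 19.9% of 216 such values were 0% and 12.5% were 100%. These values include the C29+5-azadC libraries, whose low values chose the genes, so the choice favors this share of 0%. For comparison, cytosines of the whole data set with 10 reads in all libraries of vehicle and C29+5-azadC and at least 25% methylation in vehicle had 7.97% of their values at 0% and 40.8% at 100%.

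The strands of a CpG often disagreed in the 6 tiles. In 107 pairs of a CpG and a library with 10 reads on each strand, the strands differed by a median of 28.3 points, and by 25 points or more in 52.3% of pairs. Over all pairs of the whole data set the median gap was 0 and 18.7% differed by 25 points or more. Among pairs with a mean level of at least 25%, the share was 54.2% of 83 pairs in the tiles, with a median gap of 31.2 points, and 44.2% of 724889 pairs in the whole data set, with a median gap of 19.6 points. Among pairs with a mean between 25% and 75%, the share was 60.7% of 61 pairs in the tiles and 69.8% of 333879 in the whole data set. The libraries of a group also differed. The gap between the 2 libraries of C29, which did not choose the genes, was 7.63 points at Mettl21a, 13.5 at Foxe1, 17.9 at Des, 23.7 at Cacna1b 25.8 at Ovgp1 and 47.7 at Nfic, where replicate 2 had 24 reads, and the median over 30895 tiles with at least 50% methylation in vehicle was 7.73. The gap between the 5-azadC libraries was 36.1 points at Mettl21a, 34.2 at Foxe1, 24.2 at Des, 10.6 at Ovgp1, 9.47 at Nfic and 6.95 at Cacna1b, with a median of 10.4 over 35076 such tiles.

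Few tiles next to the 6 differed as much, which the choice of the 6 for large differences favors. Of 60 tiles within 5 kb on either side of the 6 tiles, 17 held a cytosine with 10 reads in all libraries of vehicle and C29+5-azadC. Their differences between C29+5-azadC and vehicle ranged from -26.1 to 7.88 points with a median of -11.4, and 1 of the 17 reached 25 points. Of all 148933 tiles, 12.9% were called lower, which needed 25 points and also a q below 0.01 (logistic test). The 1 neighboring tile that reached 25 points, 2 kb upstream of the Des tile, had 2 cytosines at 76.6% and 94.1% with vehicle and 45.8% and 68.2% with C29+5-azadC, and 100% and 84.6% with C29. The tile between it and the Des tile, which contains the Des start site, had 16 cytosines at 34.1% and 30.0% with vehicle and at 12.3% and 24.5% with C29+5-azadC, and C29 alone was at 20.2% and 11.1%, also below both vehicle libraries. Around Des, then, the difference kept its sign over 3 tiles, and both C29+5-azadC libraries were below both vehicle libraries in each.

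Around the other genes the nearest tiles were closer to vehicle or overlapped with it. At Nfic the tile 1 kb downstream was at 87.7% and 96.8% with vehicle and 75.1% and 88.6% with C29+5-azadC, which overlap. The Nfic tile 1 kb upstream had little methylation, 2.03% and 2.95% with vehicle and 11.5% and 9.18% with C29+5-azadC. The 3 Nfic tiles with the largest differences, from -17.2 to -19.4 points, had overlapping libraries. In Mettl21a the 2 cytosines of the tile 1 kb downstream were at 100% and 60.3% with vehicle and 75% and 35.3% with C29+5-azadC, which also overlap. In Cacna1b the 15 cytosines of the tile 1 kb downstream were at 72.9% and 80.5% with vehicle and 69.0% and 57.9% with C29+5-azadC, and C29 was lower there, at 58.5% and 24.8%. In Foxe1 the next tile downstream had 67 cytosines at 63.5% and 56.2% with vehicle and 56.5% and 52.5% with C29+5-azadC. The Foxe1 tile 5 kb downstream, with 12 cytosines, was at 63.8% and 77.0% with vehicle and 48.2% and 54.3% with C29+5-azadC (-18.7 points), with no overlap. Over all 17 tiles both C29+5-azadC libraries were below both vehicle libraries in 7. No share in this order and no median over all tiles is set beside these tiles. The 7 can therefore not be told from the rest of the genome. Ovgp1 had no other tile to compare within 5 kb.

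**Figure D4:**
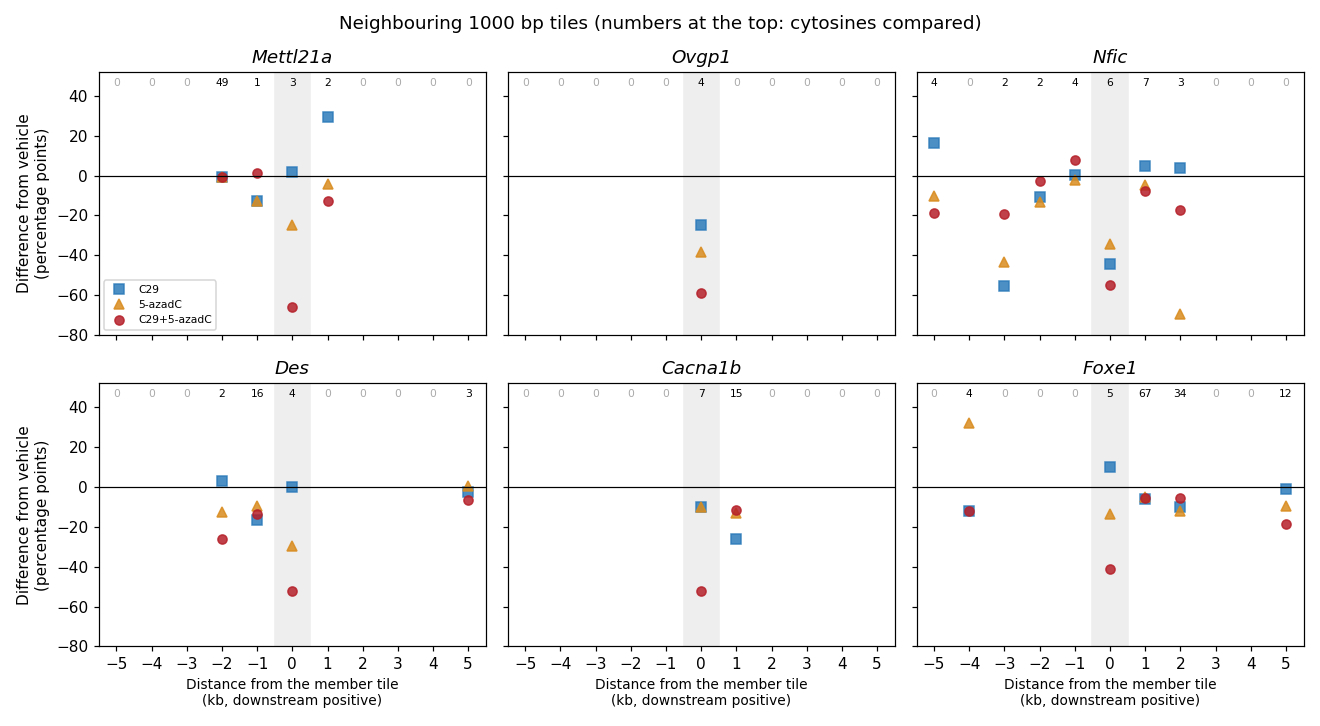
Pooled difference from vehicle (percentage points) of each treatment in the 1000 bp tiles from 5 kb upstream to 5 kb downstream of each of the 6 tiles (grey band), with the number of cytosines compared at the top. C29+5-azadC (red circles) reaches -41.3 to -65.9 points in the grey band, which was chosen for large differences, and -26.1 to 7.88 points outside it.

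The start sites of the full-length genes were read separately where they had cytosines. In the 1000 bp upstream of the Mettl21a start, 28 cytosines pooled gave 0% to 2.81% in each of the 8 libraries. C29 replicate 1 had 10 reads at 16 of them. Single cytosines were higher, as 64617254 with 14.3% in vehicle replicate 1 and 64617662 with 19.5% in 5-azadC replicate 1. At Nfic 10 cytosines upstream of the first start were at 70.6% and 73.0% with vehicle, 65.7% and 61.9% with C29, 76.7% and 53.4% with 5-azadC, and 41.2% and 67.5% with C29+5-azadC. At Des 3 cytosines were at 70.7% and 87.3% with vehicle, 74.6% and 71.0% with C29, 65.5% and 36.7% with 5-azadC, and 24.4% and 62.4% with C29+5-azadC, which put both C29+5-azadC libraries below both vehicle libraries. Ovgp1, Cacna1b and Foxe1 had no cytosine there with 10 reads in all libraries of vehicle and C29+5-azadC. Within 500 bp of the start on either side, Cacna1b had 22 such cytosines at 66.9% and 81.0% with vehicle and 56.2% and 39.7% with C29+5-azadC, and Foxe1 had 11 at 69.2% and 75.9% with vehicle and 52.6% and 47.8% with C29+5-azadC. These include the cytosines that chose both genes.

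Over the whole gene with 5000 bp upstream and without the chosen tile, the difference was smaller than in the tile, which the choice of the tile favors. C29+5-azadC differed from vehicle by -1.71 points over 52 cytosines in Mettl21a, by 0.468 points over 230 in Nfic, by -15.4 points over 21 in Des, by -6.02 points over 29 in Cacna1b and by -6.45 points over 105 in Foxe1. With the tile included the differences were -23.2 points in Des and -7.84 in Foxe1. In Des C29 alone differed by -18.3 points and 5-azadC alone by -15.3 points on the same cytosines, and in Foxe1 by -4.94 and -6.22 points. Ovgp1 had no other cytosine to compare.

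How much of the difference each drug gave by itself was read on the same cytosines, and libraries of the single drugs entered with whatever reads they had. All 3 differences are taken from the same vehicle libraries, which also chose the genes, so they are set side by side with no test. On these cytosines 5-azadC alone was below vehicle at all 6 tiles, with differences of -25 points at Mettl21a, -38.1 at Ovgp1, -34.2 at Nfic, -29.6 at Des, -10.1 at Cacna1b and -13.5 at Foxe1. Against the difference with both drugs these are 37.9%, 64.9%, 62.4%, 56.5%, 19.4% and 32.7%. C29 alone differed from vehicle by 1.87 points at Mettl21a, -0.00820 at Des and 9.91 at Foxe1, and by -10.0 points at Cacna1b, -24.8 at Ovgp1 and -44.6 at Nfic. Without C29 replicate 2 the Nfic value is -38.2 points and the Ovgp1 value -8.87. At Cacna1b the C29 value turns to 2.50 points without C29 replicate 1 and is -28.5 without vehicle replicate 1, and the 5-azadC value is -28.6 without vehicle replicate 1 and -3.74 without vehicle replicate 2. The set of cytosines also matters: over those with 10 reads in all libraries of vehicle and 5-azadC, 5-azadC differed from vehicle by -1.80 points at Des, 7.89 at Cacna1b and 0.767 at Foxe1, against -25 at Mettl21a, -38.1 at Ovgp1 and -37.9 at Nfic. At Foxe1 the sign of the 5-azadC difference rests on 5-azadC replicate 2 (10.6 points without it), and at Mettl21a that library carries most of the difference (-5.0 points without it).

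**Figure D5:**
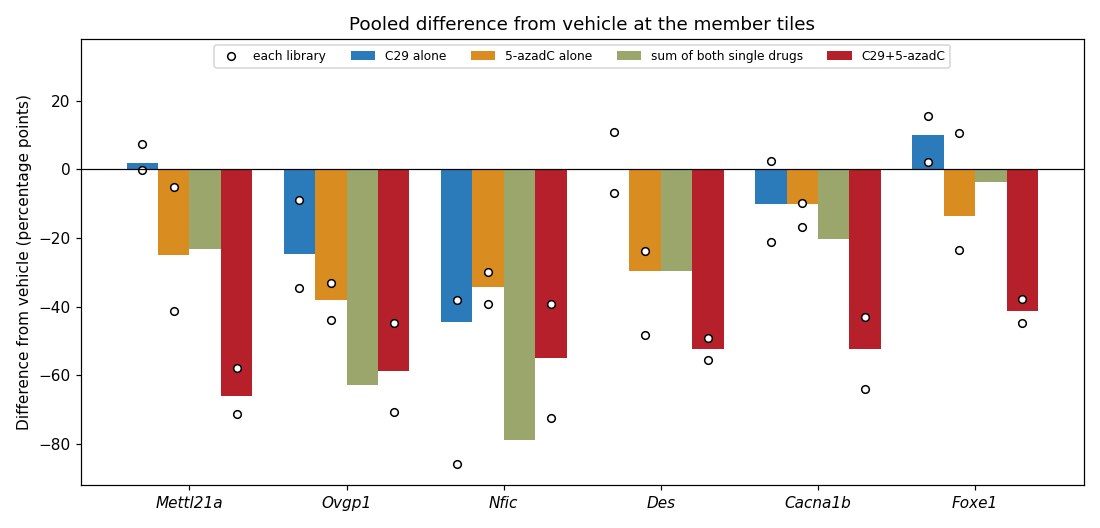
Pooled difference from vehicle (percentage points) at the 6 tiles for C29 alone, 5-azadC alone, the sum of these, and C29+5-azadC (bars), with the difference of each library from pooled vehicle (white points). At Mettl21a, Des, Cacna1b and Foxe1 the bar of C29+5-azadC is longer than the sum of the single drugs, at Ovgp1 it is near it and at Nfic it is shorter. The choice of the genes favors long bars of C29+5-azadC, and C29 replicate 2 was read at only 1 cytosine of the Nfic tile.

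Added together, the single drugs gave -23.1 points at Mettl21a, -29.6 at Des, -20.2 at Cacna1b and -3.60 at Foxe1, and C29+5-azadC differed from these sums by -42.8, -22.7, -32.1 and -37.7 points, in the same order. At Ovgp1 the sum was -62.9 points and C29+5-azadC differed from it by 4.13 points, and at Nfic the sum was -78.8 points, and C29+5-azadC differed from it by 24.0 points. The Nfic sum includes C29 replicate 2, which had reads at only 1 of the cytosines. With every cytosine weighted equally C29 differed from vehicle by -28.7 points there, and as the mean of the 2 library values by -61.6. Compared with the single drugs directly, C29+5-azadC was lower than C29 by -10.3 points at Nfic to -67.8 points at Mettl21a, and lower than 5-azadC by -20.6 points at Nfic and at Ovgp1 to -42.1 points at Cacna1b. Both C29+5-azadC libraries were below all 6 other libraries in 5 of the 6 tiles, all but Nfic. The choice of the genes by low C29+5-azadC values favors this order. It also favors C29+5-azadC values lower than the sums above, and the gap from the sums was not tested. Among the 210 of the 295 ranked tiles with at least 100 reads in all 8 libraries, C29+5-azadC was the lowest of the 4 groups in 79.0%, and both its libraries were below all 6 others in 31.0%. The median share over these 210 tiles was 64.6% of the difference for 5-azadC alone and 36.9% for C29 alone. Their median differences from vehicle were -10.0 points for C29, -17.9 for 5-azadC and -29.7 for C29+5-azadC.

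The only comparison that uses none of the libraries behind the choice is 5-azadC alone against C29 alone. The reads of each tile were compared by the logistic test over all 156129 tiles, with calls at a q below 0.01 and 25 points. Of the 5 member tiles with reads in all 4 libraries, 1 was called lower with 5-azadC, where 14.0% of all tiles were called lower and 3.63% higher. The called tile was that of Mettl21a, with 71.7% and 35.6% for 5-azadC and 76.6% and 84.2% for C29 (-26.8 points, logistic test, Benjamini-Hochberg q = 9.39e-16). 5-azadC was below C29 in 2 of 2 libraries there, but the 5-azadC libraries differed by 36.1 points from each other, more than the difference of the groups. With the variation between libraries taken into account, the overdispersion-corrected F test gave q = 0.763, and the call was lost without 5-azadC replicate 2 (-6.88 points) and without C29 replicate 2 (-24.8 points).

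At the other tiles 5-azadC and C29 overlapped or differed by less than 25 points. The differences were -15.5 points at Ovgp1, -14.1 at Des, -10.8 at Foxe1 and 8.09 at Cacna1b, and by the F test their q ranged from 0.763 to 0.886. Nfic could not be tested, because no cytosine of its tile had 10 reads in all 4 libraries. C29 replicate 2 had no reads at 5 of the 6 cytosines, and 5-azadC replicate 2 had 7 reads at the other. Where other settings made that cytosine testable (at least 5 reads, both strands of a CpG summed, or without 5-azadC replicate 2), the groups differed by 0 points. Without C29 replicate 2 the tile differed by 0.762 points over 6 cytosines. At Cacna1b 16 cytosines were tested, mostly on the plus strand, with 56.5% and 63.9% for 5-azadC and 50.7% and 54.9% for C29, so both 5-azadC libraries were above both C29 libraries. With at least 20 reads per cytosine the Des tile was also called (-27.5 points), and without C29 replicate 2 the Ovgp1 tile was (-28.8 points).

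Single cytosines of the tiles moved in both directions in this comparison. Of 34 cytosines tested in the member tiles, 8 were called lower with 5-azadC and 6 higher, where 10.1% of all 917401 cytosines were called lower and 4.42% higher. In Mettl21a the minus-strand cytosines 64615958 (-35.2 points, logistic test, q = 5.66e-11) and 64615977 (-25.8 points, q = 6.59e-06) were lower. In Cacna1b 2 were lower and 5 higher. On the plus strand 24763294 (61.0 points, logistic test, q = 6.57e-10) and 24763327 (-56.2 points, q = 1.47e-11) moved in opposite directions. Their read numbers were the same in each of the 4 libraries, so these q-values are not independent. Foxe1 had 3 lower and 1 higher, with -39.5 points at 46343979 (q = 1.16e-06) and 44.5 points at 46343742 (q = 6.53e-09). Over the whole genes with 5000 bp upstream, 34 of 570 cytosines were lower (5.96%) and 31 higher (5.44%), and 8 of 51 tiles were lower (15.7%) and 1 higher. Those 8 were 3 of 26 tiles in Nfic, 2 of 4 in Mettl21a, 2 of 11 in Cacna1b and 1 of 5 in Des. Of the 295 tiles of the ranking, 283 could be tested in the same 4 libraries, and 23 of them were called lower (8.13%) and 9 higher (3.18%), against 6.54% and 2.05% of all 32884 promoter tiles.

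Relatives of the 6 genes were read in the same way, from a list of 40 genes in their families that was drawn up with earlier results known. With 5-azadC against C29, 4 of 71 promoter tiles of 29 of these genes were called lower, where 6.54% of all promoter tiles were. The called tiles were those of 3 voltage-gated calcium channel subunits, Cacna1e (4.17% and 25% with 5-azadC against 75.4% and 48.6% with C29, q = 1.48e-10), Cacna1g (0% and 97.4% against 66.7% and 90.5%, q = 1.29e-13) and Cacna1h (37.6% and 55.8% against 91.0% and 87.5%, q = 2.56e-51), and of Nfix, a paralog of Nfic (46.6% and 49.3% against 91.8% and 75.1%, q = 2.62e-16). In the Cacna1g tile the groups overlapped, and in the other 3 they did not. The called tiles held 2, 3, 8 and 1 cytosines, in the order given. Other promoter tiles of these genes were not called and went in both directions. They ranged from -16.4 points (1 cytosine) to 18.1 (12 cytosines) in Cacna1e and from -5.16 (4 cytosines) to 15.9 (7 cytosines) in Nfix.

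With C29+5-azadC against vehicle, which did not choose these relatives, 6 of 75 promoter tiles were lower and 1 higher, where 6.61% of all promoter tiles were lower and 2.05% higher. Chil1, a chitinase-like gene of the family of Ovgp1, went from 100% and 100% with vehicle to 22.2% and 63.2% with C29+5-azadC. That tile held 2 cytosines (-60.9 points, logistic test, q = 3.75e-42), and the other Chil1 promoter tiles differed by -1.65 and 5.38 points. Chit1, a chitinase, went from 38.7% and 100% to 58.3% and 38.6% at 1 cytosine, which overlap. Mettl22, a relative of Mettl21a, went from 96.4% and 84.6% to 55.1% and 73.3% (4 cytosines, -29.0 points, logistic test, q = 1.97e-21). Among the channel subunits Cacna1e went from 38.5% and 100% to 8.33% and 15.2% (2 cytosines, -53.8 points, logistic test, q = 4.66e-09). Cacna1c was lower in 2 tiles of 1 cytosine each, from 70% and 46.5% to 2.70% and 0% in one and from 100% in both libraries to 0% in both in the other. Cacna1f, the channel subunit called higher, had 57.1% and 100% with vehicle and 100% in both C29+5-azadC libraries at 1 cytosine, which overlap. The median difference was -1.09 points over 13 forkhead tiles, -1.38 over 12 nuclear factor I tiles, -6.08 over 4 tiles of type III intermediate filament genes and -1.65 over all 75.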

How the data were processed

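RRBS libraries (8, 2 per group) were assigned to groups by their titles. The authors aligned reads to mm10/GRCm38 with Bismark 0.20.0 and deposited, for each CpG cytosine and strand, the methylated fraction and the read count, neither normalized. Multiplied together, these came out as whole numbers of methylated reads (tolerance 0.01) at nearly every cytosine. methylKit's logistic likelihood-ratio test (methylKit 1.7.0 was used by the authors) was rewritten in Python 3.11.15 with NumPy 2.4.6, pandas 2.3.3, SciPy 1.17.1 and statsmodels 0.14.6, and tested on simulated data. Cytosines with at least 10 reads in all 4 libraries compared were used, without the 0.1% of highest coverage. Reads were summed over 1000 bp tiles, and calls needed a Benjamini-Hochberg q below 0.01 over all tiles or cytosines and 25 percentage points. Genes were taken from GENCODE M21. The F test corrects for overdispersion, and in R 4.3.3, edgeR 4.0.16 (limma 3.58.1) fitted methylated and unmethylated counts. Sequences were read with pysam 0.24.0 and figures drawn with matplotlib 3.10.9. Alternatives covered minimum reads, minimum difference, tile length, strands, tests, a replicate block and leaving out each library.

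The 6 genes and the list of relatives were chosen with earlier results of these data known. Genes named are the 6, the tile next in rank after Cacna1b, genes that overlap their tiles, and called relatives. The replicate numbers did not pair the libraries: the correlation of deviations over tiles was 9.04e-06 for 5-azadC with C29 and -0.00288 for C29+5-azadC with vehicle. The labels do not say that libraries of a group came from separate experiments. The q-values of the logistic test measure the spread of reads only. Those of the F test and of edgeR measure the spread of these libraries as well.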

Additional observations from a re-analysis of the deposited data

How the results depend on the processing

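Counts of calls moved with the thresholds and tests. For 5-azadC against C29, 27499 of all 156129 tiles were called in either direction. These became 15791 of 107926 with at least 20 reads and 69087 of 156129 with a minimum difference of 10 points. By the overdispersion-corrected F test and by edgeR's quasi-likelihood test 0 of all tiles were called. The 1 member tile called, of 5 tested, became 2 with 20 reads (Mettl21a and Des) and 4 with 10 points. It became 0 by the F test and 0 by edgeR, each with 0 at an unadjusted p under 0.05. Leaving out 1 library gave 0 to 1 tiles, with Mettl21a lost without 5-azadC replicate 2 and without C29 replicate 2. The 65 member cytosines called became 29 with 20 reads, 128 with 10 points, 0 by the F test (14 at an unadjusted p under 0.05) and 100 to 127 without 1 library. The 4 tiles of relatives became 2 with 20 reads, 20 with 10 points, 0 by the F test (5 unadjusted), 0 by edgeR (4 unadjusted) and 6 to 12 without 1 library. For C29+5-azadC against vehicle, the 7 tiles of relatives became 3, 23, 0 (4 unadjusted), 0 (5 unadjusted) and 10 to 17 under the same settings. Of all tiles, C29+5-azadC against vehicle called 25526 of 148933 in either direction, 13827 of 96449 with 20 reads and 62148 of 148933 with 10 points. By the F test and by edgeR it called 0. Why the counts moved was not tested. With the replicate number as a block the counts were 1, 61, 4 and 7, so the replicate block moved none by over 1.5 times. The F test rests on 2 residual degrees of freedom, and its counts of 0 say nothing about stability.

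The difference between C29+5-azadC and vehicle at the 6 tiles was below 0 in 63 of 64 alternatives, from -76.7 to 0 points. The genes were chosen for this difference in the same libraries, so the choice favors the sign and the count is no test. The value of 0 is Cacna1b with cytosines read in all 8 libraries, which leaves 1 cytosine. Over cytosines with 10 reads in any library the difference was -28.8 points at Cacna1b, -36.8 at Des, -36.3 at Nfic and -18.5 at Foxe1. The strands were also taken separately, a setting chosen after seeing the data: C29 at Foxe1 differed from vehicle by 35.0 points on the plus strand and -16.2 on the minus strand. Leaving out 1 library, C29 against vehicle ranged from -8.98 to 7.95 points at Mettl21a and from -4.89 to 19 at Foxe1.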
